A study of Mus musculus with 6 samples.

Results

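Genes that respond to the transcription factor NF-kB during inflammation were measured by RNA-seq in mouse livers that express wild-type FXR or an FXR that cannot be phosphorylated at tyrosine 67. The members were taken by name, from a list drawn up with earlier results of these data known, and all 10 were found among the 23284 genes of the count files. They are the feedback inhibitors Nfkbia, Tnfaip3 and Socs3, the NF-kB subunit gene Relb, the adhesion molecules Icam1 and Vcam1, the chemokines Ccl2, Cxcl1 and Cxcl10, and the cytokine Il1b. The comparison asks whether they differ between the 3 FXR-WT and the 3 Y67F-FXR livers, since FXR is known to restrain inflammatory genes in the liver.

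All mice were male FXR-floxed animals that received, at 8 weeks of age, AAV8 vectors with the liver-specific TBG promoter. One vector encoded Cre recombinase, which deletes the floxed mouse FXR gene. A second vector encoded FXR, either as FXR-WT or with phenylalanine in place of tyrosine 67 (Y67F-FXR). The Cre vector was therefore shared by both groups, and no library without transgenic FXR was analysed here. After a further 4 weeks the mice ate chow containing 0.5% cholic acid, a bile acid that activates FXR, for 6 h, and the livers were taken. The TBG promoter is active in hepatocytes, so that Kupffer cells, endothelial cells and leukocytes, which also express many of the members, are not expected to carry the deletion or the transgene. The labels name no inflammatory stimulus.

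NF-kB is a family of transcription factors that are held in the cytoplasm by inhibitor proteins. Signals from receptors for tumor necrosis factor, interleukin-1 or bacterial products activate a kinase that marks the inhibitor for destruction, and the freed factor then enters the nucleus. Among its targets are the genes for its own inhibitors, which shut the response off again, and genes for adhesion molecules and chemokines, which bring leukocytes into the tissue.

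The promoters of several members hold letters that NF-kB recognizes, and these are shown because NF-kB response is what the members are known for. In RefSeq (GRCm38.p6), windows that reach from upstream of the start site to just beyond it were present for 7 of the 10 members, namely Icam1, Nfkbia, Tnfaip3, Cxcl1, Cxcl10, Socs3 and Il1b. The word GGAATTTCC, searched on both strands (GGAAATTCC on the other), was found in 5 of these 7 members and in 0.317% of all 32851 windows. The word was chosen with the members known. The degenerate NF-kB consensus, of which the word is one form when a G precedes it, was found in 4 of the 7 members and in 8.46% of all windows. Matches to either are in capitals below, on the strand of the gene, and they are descriptions of the letters and not of measured binding.
Icam1 (chr9:21015779-21015803, plus strand): ttcagtttGGAAATTCCtagatcgc
Nfkbia (chr12:55492659-55492684, minus strand): actggcttGGAAATTCCCcgcgcctg
Tnfaip3, distal (chr10:19015518-19015543, minus strand): ctcacgcgGGGACACCCCggggcggg
Tnfaip3, proximal (chr10:19015411-19015442, minus strand): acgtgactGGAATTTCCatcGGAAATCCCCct
Cxcl1 (chr5:90891166-90891192, plus strand): tgtactccGGGAATTTCCCtggcccgg
Cxcl10, distal (chr5:92349031-92349056, minus strand): aggggagaGGGAAATTCCaagttcat
Cxcl10, proximal (chr5:92348975-92349001, minus strand): ggtttacaGGGGACTTCCCtcgggttg
The matched letters closest to a start site were those of Tnfaip3, which ended at position -3, and those of Nfkbia, which ended at position -20, counted from the start site. The windows of Socs3 and Il1b held neither motif.

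Expression was read as counts per gene, with library totals from 19551113 to 22053320 reads, and is given as CPM, which are counts scaled to a common library size with TMM factors. Whole liver was sequenced, so that fewer cells of a type and less RNA per cell cannot be told apart. Of all genes, 12453 passed the filter on low counts, and 9 of the 10 members did, with Ccl2 left out. The groups were compared with the quasi-likelihood test of edgeR, with p-values adjusted over all tested genes by the Benjamini-Hochberg method. Calls needed a fold change over 1.5 as well as an adjusted p under 0.05. None of the 9 tested members was called (0 of 9), against 0.972% of all tested genes, and DESeq2 also called 0. At an unadjusted p under 0.05 there was 1 member by edgeR and 1 by DESeq2, against 13.4% of all tested genes by edgeR. The values of the 3 FXR-WT and the 3 Y67F-FXR livers overlapped in all 10 members, whereas they did not overlap in 20.6% of the tested genes. Of the 9 members, 4 were fitted lower and 5 higher in Y67F-FXR livers. Their median log2 fold change was 0.03, that of all tested genes 0.01. The median size of the change, regardless of sign, was 0.16 on the log2 scale for the members and 0.19 for all tested genes.

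**Figure D1:**
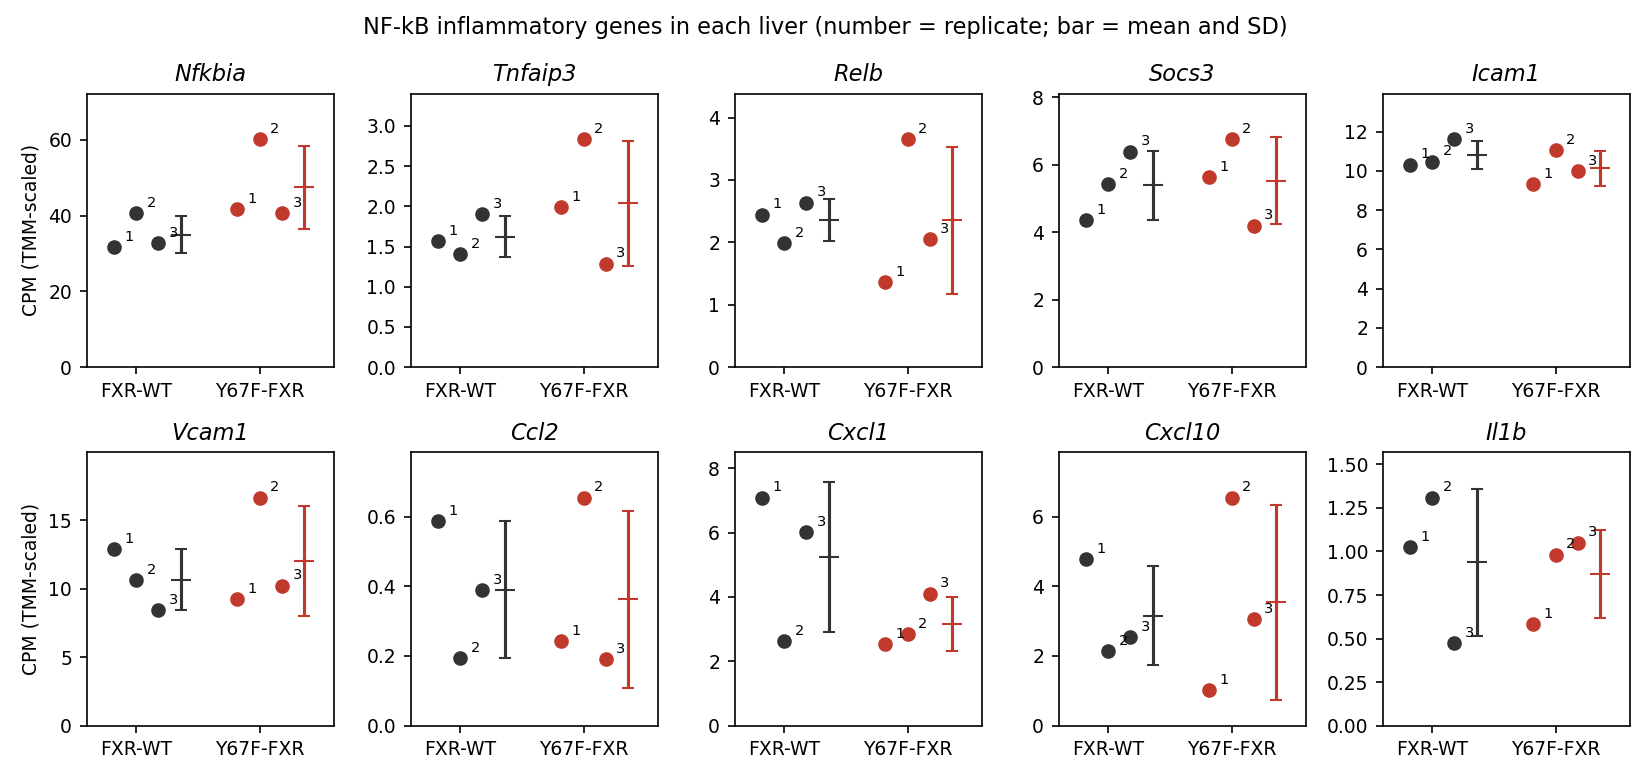
Level of each of the 10 genes in CPM (y axis, from 0) in the 3 FXR-WT (black) and 3 Y67F-FXR (red) livers, with the replicate number beside each point and the mean and SD (n = 3) to the right. The groups overlap in every panel, and Y67F-FXR replicate 2 is the highest point in 7 of the 10.

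Nfkbia encodes IkB-alpha, the inhibitor that holds NF-kB in the cytoplasm and is itself induced by NF-kB. It lies on chromosome 12 of mm9 (56590396 to 56593634). Its level was 31.7, 40.7 and 32.7 CPM in FXR-WT replicates 1 to 3 and 41.7, 60.2 and 40.7 CPM in Y67F-FXR replicates 1 to 3. The highest FXR-WT liver and the lowest Y67F-FXR liver were thus level, and the remaining Y67F-FXR livers lay above all FXR-WT livers. The means were 35.0 ± 4.96 CPM (SD, n = 3) and 47.5 ± 10.99 CPM (SD, n = 3). The log2 fold change was 0.44 (standard error 0.187, unadjusted p = 0.0464, edgeR adjusted p = 0.361), the largest increase among the tested members. Its sign held in all 12 alternative analyses, with adjusted p from 0.219 to 0.599. Without Y67F-FXR replicate 2, the log2 fold change was 0.22 and the edgeR adjusted p was 0.566.

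Tnfaip3 encodes A20, an enzyme that edits ubiquitin chains and ends NF-kB signalling, and it lies on chromosome 10 of mm9 (18720717 to 18735216). It was low, with 1.56, 1.41 and 1.90 CPM in FXR-WT and 1.99, 2.84 and 1.29 CPM in Y67F-FXR livers, or 27 to 52 reads a library. The Y67F-FXR group held both the highest and the lowest liver. Its log2 fold change was 0.32 (standard error 0.326, edgeR adjusted p = 0.757), and it was 0.00 without Y67F-FXR replicate 2. Over the alternatives the edgeR or DESeq2 adjusted p ran from 0.662 to 1.00.

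Socs3, an inhibitor of JAK-STAT signalling that is induced by interleukin-6 through STAT3, lies on chromosome 11 of mm9 (117827401 to 117830680). Its level was 4.35, 5.43 and 6.39 CPM in FXR-WT and 5.64, 6.76 and 4.20 CPM in Y67F-FXR livers. Both groups covered nearly the same range. The log2 fold change was 0.03 (standard error 0.233, edgeR adjusted p = 0.979), and its sign turned in 3 of 12 alternative analyses.

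Relb encodes the NF-kB subunit of the slower, non-canonical pathway and is itself an NF-kB target (chromosome 7 of mm9, 20191571 to 20214787). It had 2.44, 1.99 and 2.64 CPM in FXR-WT and 1.36, 3.66 and 2.05 CPM in Y67F-FXR livers. The group means were equal at 2.36 ± 0.333 CPM (SD, n = 3) and 2.36 ± 1.177 CPM (SD, n = 3), with the Y67F-FXR livers spread to both sides of the FXR-WT livers. The log2 fold change was -0.01 (standard error 0.359, edgeR adjusted p = 0.996), and it was -0.48 without Y67F-FXR replicate 2 and 0.27 without Y67F-FXR replicate 1 (edgeR adjusted p = 0.532 and 0.747).

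Icam1 encodes an adhesion molecule that leukocytes bind through integrins, and lies on chromosome 9 of mm9 (20820404 to 20833240). It was the steadiest member, with 10.3, 10.5 and 11.62 CPM in FXR-WT and 9.33, 11.1 and 9.98 CPM in Y67F-FXR livers. The highest liver was 1.25 times the lowest. Its log2 fold change was -0.09 (standard error 0.140, edgeR adjusted p = 0.853), with a 95% interval of the fold change from 0.749 to 1.17, so that a 1.5-fold difference in either direction lay outside it.

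Vcam1, the adhesion molecule for integrin alpha4 beta1 on lymphocytes and monocytes, lies on chromosome 3 of mm9 (115812938 to 115832606). It had 12.9, 10.6 and 8.42 CPM in FXR-WT and 9.23, 16.6 and 10.2 CPM in Y67F-FXR livers. Apart from the high value of Y67F-FXR replicate 2, the Y67F-FXR livers lay within the FXR-WT range. The log2 fold change was 0.17 (standard error 0.258, edgeR adjusted p = 0.853), and without that liver it was -0.14.

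Among the chemokines of the 10 members, Cxcl1 had the fitted difference farthest from 0. It encodes a ligand of the receptor CXCR2 that attracts neutrophils, and lies on chromosome 5 of mm9 (91320271 to 91322141). Its level was 7.09, 2.62 and 6.01 CPM in FXR-WT and 2.53, 2.84 and 4.11 CPM in Y67F-FXR livers. FXR-WT replicate 2 lay with the Y67F-FXR livers, and the other FXR-WT livers were above all of them. The means were 5.24 ± 2.33 CPM (SD, n = 3) and 3.16 ± 0.836 CPM (SD, n = 3). The log2 fold change was -0.73 (standard error 0.373, unadjusted p = 0.0869, edgeR adjusted p = 0.461). It was negative in all 12 alternative analyses, from -1.05 to -0.46, with adjusted p from 0.244 to 0.697. The value farthest from 0 was that without FXR-WT replicate 2, the low FXR-WT liver, whose removal widens the difference by construction (edgeR adjusted p = 0.244).

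Cxcl10, a chemokine for activated T cells that is induced by interferon-gamma together with NF-kB, lies on chromosome 5 of mm9 (92775665 to 92777915). It varied most of all members. Its level was 4.79, 2.13 and 2.55 CPM in FXR-WT and 1.02, 6.55 and 3.06 CPM in Y67F-FXR livers. The Y67F-FXR group held the lowest and the highest liver, which differed 6.41-fold. The log2 fold change was 0.16 (standard error 0.592, edgeR adjusted p = 0.954), and -0.64 without Y67F-FXR replicate 2 (edgeR adjusted p = 0.637, and 0.595 to 0.998 over the alternatives).

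Ccl2, which attracts monocytes through the receptor CCR2, lies on chromosome 11 of mm9 (81849079 to 81850954) and was near the detection limit. It had 12, 4 and 9 reads in FXR-WT and 5, 12 and 4 reads in Y67F-FXR livers. In a fit of 16832 genes without the filter, its log2 fold change was -0.12, with a 95% interval from -1.48 to 1.24. A 2-fold difference in either direction lay inside this interval and was not detectable at this depth.

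Il1b, the gene for interleukin-1 beta, a cytokine made chiefly by macrophages and other myeloid cells, lies on chromosome 2 of mm9 (129190316 to 129196856). It had 1.03, 1.31 and 0.475 CPM in FXR-WT and 0.583, 0.982 and 1.05 CPM in Y67F-FXR livers, from 11 to 27 reads a library. The Y67F-FXR livers all lay within the FXR-WT range. Its log2 fold change was -0.09 (standard error 0.432, edgeR adjusted p = 0.964).

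**Figure D2:**
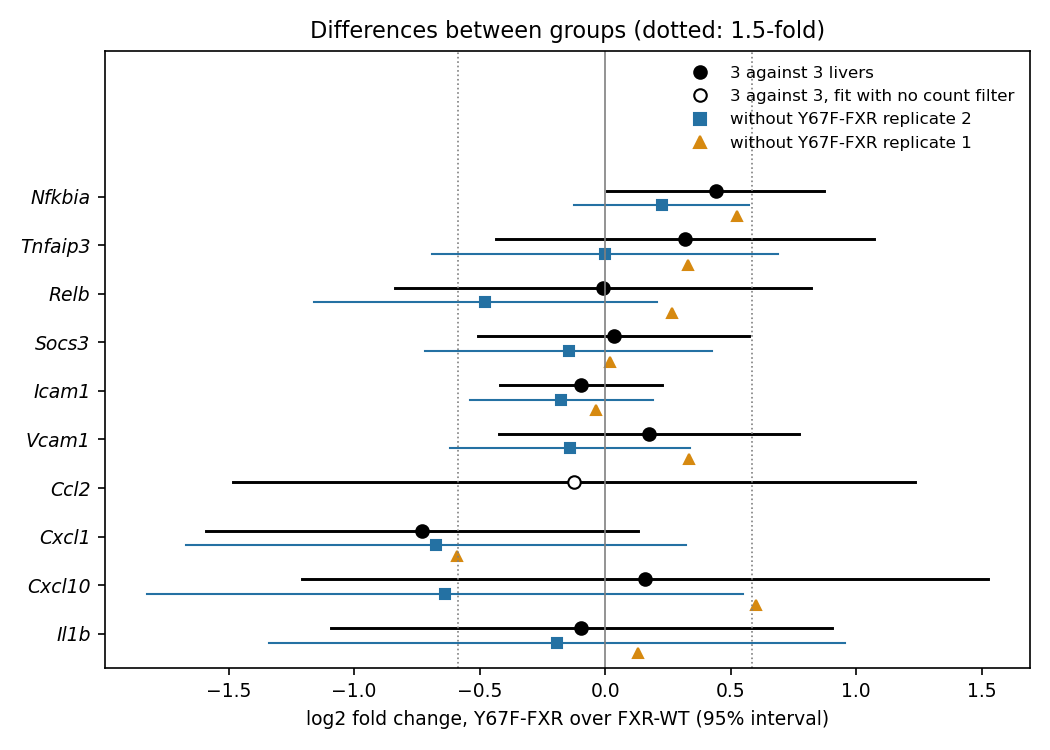
Log2 fold change of Y67F-FXR over FXR-WT livers (x axis) with its 95% interval for each gene (y axis), from 3 against 3 livers (black; Ccl2, open, from the fit without a count filter) without Y67F-FXR replicate 2 (blue, with interval) and without Y67F-FXR replicate 1 (orange, estimate only). In black, the interval of Nfkbia alone lies above 0, while 8 of 9 blue estimates lie below 0 and 7 of 9 orange estimates above it.

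The intervals set how large a difference could have gone unseen. The fold change had a 95% interval within 1.5-fold in both directions for Icam1 and for Socs3 (0.705 to 1.49). For the other tested members a 1.5-fold difference in at least one direction lay inside the interval, which ran from 1.01 to 1.83 for Nfkbia, from 0.746 to 1.71 for Vcam1, from 0.560 to 1.76 for Relb and from 0.740 to 2.10 for Tnfaip3. The widest were those of Il1b (0.469 to 1.87), Cxcl1 (0.332 to 1.10) and Cxcl10 (0.433 to 2.88). These intervals are not adjusted for the number of genes. With 3 livers in each group, the smallest two-sided p that exact permutation can give is 0.1.

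Per kilobase of exon (RPKM), Nfkbia stood far above the rest at a mean of 26.1 ± 6.50 RPKM over the 6 livers (SD, n = 6), and in each liver it was above every other member. Cxcl1 (4.42 RPKM), Icam1 (4.12), Vcam1 (3.34) and Cxcl10 (3.04) followed, then Socs3 (2.01), Relb (1.07), Il1b (0.682), Ccl2 (0.467) and Tnfaip3 (0.399). Apart from Nfkbia and Cxcl1, the ranges over the livers overlapped between each pair of neighbours in this order. Socs3 was above Relb in 6 of 6 livers, and Icam1 above Vcam1 in 5, while Cxcl1 was above Icam1, Cxcl10 above Socs3, and Ccl2 above Tnfaip3 in 3 of 6 livers each.

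The members also differed in how much the livers of a group varied. The SD within groups on the log2 CPM scale was 1.01 for Cxcl10, above that of 99.2% of the 500 tested genes closest to it in abundance. It was 0.588 for Cxcl1 (above 92.0%), 0.385 for Vcam1 (85.2%) and 0.505 for Relb (82.6%). Icam1, by contrast, had an SD of 0.109, above 10.8% of genes of like abundance. For Il1b, whose 6 libraries held 111 reads in all, counting alone would give a coefficient of variation of 23.2% if every read were independent. The observed values were 45.3% among FXR-WT and 28.9% among Y67F-FXR livers. Both reads of a pair were counted singly, so the part due to counting can be larger than 23.2%.

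A single liver stood apart for most members. Y67F-FXR replicate 2 had the highest level of 7 of the 10 members, namely Nfkbia, Tnfaip3, Relb, Socs3, Vcam1, Ccl2 and Cxcl10, and of 6 of the 9 tested members, while it was the highest liver for 23.2% of all tested genes. For Ccl2 it had as many reads (12) as FXR-WT replicate 1. It was above its gene mean by 0.58 on the log2 scale for Nfkbia, 0.65 for Tnfaip3, 0.67 for Relb and 1.17 for Cxcl10. Cxcl1 was the exception, at 0.43 below its mean. Y67F-FXR replicate 1, at the other end, had the lowest level of 4 members, with Cxcl10 at 1.41 and Relb at 0.69 below the mean. Without Y67F-FXR replicate 2, 8 of the 9 tested members were fitted lower in Y67F-FXR livers and 1 (Nfkbia) higher. The 8 include Tnfaip3 at -0.000148, and the median over the members was then -0.17 on the log2 scale, against -0.01 over all genes tested. Since this liver was left out because it was high for most members, its removal lowers the fitted values of those members by construction, while Cxcl1, low in it, went from -0.73 to -0.67. Without Y67F-FXR replicate 1 instead, 7 of the 9 were fitted higher and 2 lower, with a median of 0.27. Without any 1 of the other livers, 3 or 4 were fitted lower and 5 or 6 higher. None was called with any liver left out. Icam1 was the single member whose groups did not overlap without Y67F-FXR replicate 2, against 32.1% of all tested genes in that smaller comparison.

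**Figure D3:**
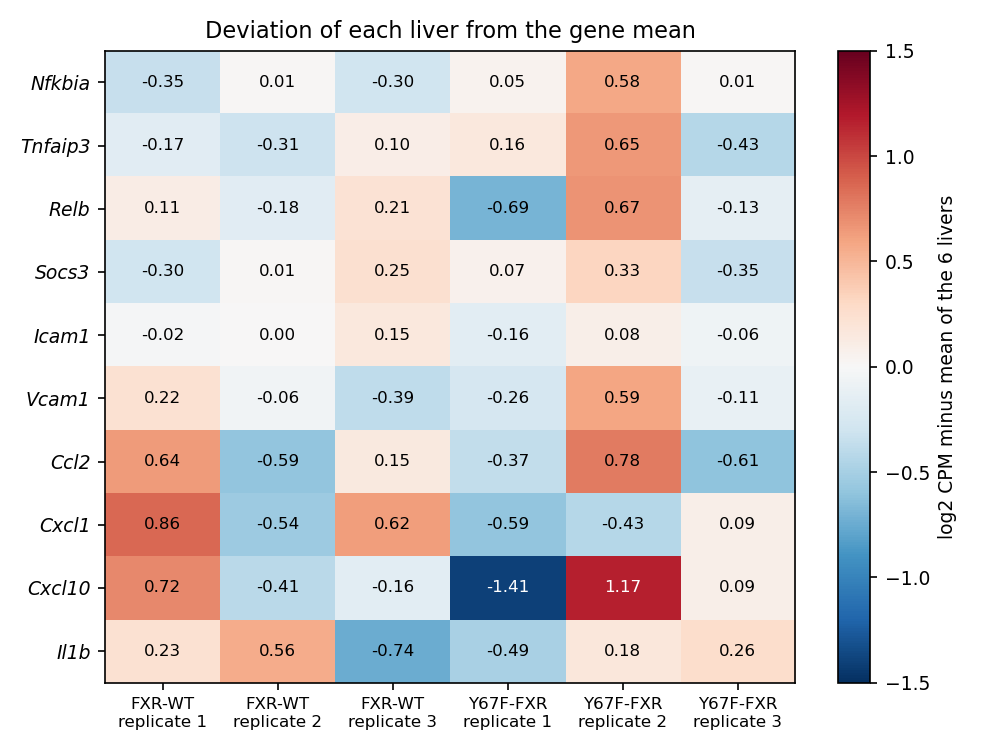
Log2 CPM of each gene (rows) in each liver (columns) minus the mean of the 6 livers, printed in each cell and coloured from blue (below the mean) to red (above). The column of Y67F-FXR replicate 2 is above the mean in 9 of 10 rows.

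Short genes read higher in the same library, and several members are short. In the fifth of the tested genes with the shortest transcripts (up to 1598 bp), the median deviation was 0.22 on the log2 scale in Y67F-FXR replicate 2 and 0.20 in FXR-WT replicate 1, and Y67F-FXR replicate 2 was the highest library for 43.5% of these genes. Nfkbia, Ccl2, Cxcl1, Cxcl10 and Il1b are in this length class. Y67F-FXR replicate 2 was the highest liver for 3 of these 5 and for 4 of the 5 longer members, against 18.1% of longer genes. After the length trend was removed from each library, it was the highest for 6 of the 9 tested members and 25.3% of all tested genes.

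The rest of the pathway, from lists written with earlier results of these data known, was read from the same fit. Of 92 genes listed, 77 were tested, and 1 (1.30%) was called, with lower expression in Y67F-FXR livers, against 0.972% of all tested genes. At an unadjusted p under 0.05, 6 were lower and 4 higher, or 13.0% against 13.4% of all tested genes. DESeq2 called 2, Lifr and Gadd45b. The groups did not overlap for 12 of the 77 (15.6%, against 20.6% of all tested genes), and the median log2 fold change was 0.02. Pooled over the lists, these shares are near the background.

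None of the 3 tested genes for NF-kB subunits was called by edgeR or DESeq2, and 0 had an unadjusted p under 0.05 in edgeR. Rela, which encodes the transactivating subunit p65, averaged 48.9 ± 5.39 CPM among FXR-WT and 52.6 ± 2.54 CPM among Y67F-FXR livers (SD, n = 3 each), with a 95% interval of the fold change from 0.881 to 1.31. Nfkb1, for the precursor of p50, had a log2 fold change of 0.02 with an interval of the fold change from 0.836 to 1.23, and Nfkb2, for the precursor of p52, of 0.31 with one from 0.822 to 1.87. Rel was too low to test. Of the 15 kinases and adaptors, 0 were called, with 2 lower and 1 higher at an unadjusted p under 0.05 (20%, against 13.4% of all tested genes). The adaptor Myd88, which carries signals from Toll-like and interleukin-1 receptors, averaged 16.2 ± 1.36 CPM among FXR-WT and 20.6 ± 0.675 CPM among Y67F-FXR livers (SD, n = 3 each), with a log2 fold change of 0.35 (edgeR adjusted p = 0.263). Traf3, which restrains the non-canonical pathway, had a log2 fold change of -0.51 (edgeR adjusted p = 0.326).

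Other genes listed for NF-kB inhibition and feedback had fitted values on both sides of 0. Of the 9 tested, 5 were fitted lower and 4 higher, and 0 were called. In edgeR, 1 (Bcl3) had an unadjusted p under 0.05 (11.1%, against 13.4% of all tested genes). The groups did not overlap for 22.2% of the list, against 20.6% of all tested genes. Bcl3, a nuclear IkB protein, had 40.0, 30.2 and 30.5 CPM in FXR-WT and 19.1, 26.3 and 25.3 CPM in Y67F-FXR livers. These groups did not overlap, with a log2 fold change of -0.51 (edgeR adjusted p = 0.253). Nfkbiz, another nuclear IkB protein, had a log2 fold change of 0.45 (edgeR adjusted p = 0.473).

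Receptors and ligands gave 0 calls by edgeR and by DESeq2 among 12 tested genes. In edgeR, 1 (Tnfrsf1b) had an unadjusted p under 0.05 (8.33%, against 13.4% of all tested genes). The receptors for tumor necrosis factor had opposite signs, with a log2 fold change of 0.40 for Tnfrsf1b and -0.24 for Tnfrsf1a (edgeR adjusted p = 0.228 and 0.390). The groups did not overlap for either gene, which makes 16.7% of the list, against 20.6% of all tested genes. Among the ligands, Tnf had from 2 to 8 reads a library, and Il6 had 0 reads in each of the 6 libraries. If reads are taken as independent, 0 reads allow up to 3 reads or 0.130 to 0.164 CPM a library. Ccl20 and the prostaglandin synthase gene Ptgs2 also had 0 reads in each, with the same limit.

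Further NF-kB targets gave 0 calls by edgeR among 13 tested genes, with 2 lower and 2 higher at an unadjusted p under 0.05. These 4 are 30.8% of the list, against 13.4% of all tested genes, and the groups did not overlap for 30.8%, against 20.6%. Gadd45b, a stress-response gene with an anti-apoptotic role downstream of NF-kB, had 2.20, 1.31 and 0.864 CPM in FXR-WT and 3.74, 9.66 and 3.34 CPM in Y67F-FXR livers. Each Y67F-FXR liver was above each FXR-WT liver, and Y67F-FXR replicate 2 was again the highest. Its log2 fold change was 1.93 (standard error 0.501, edgeR adjusted p = 0.139). Without Y67F-FXR replicate 2 it was 1.28 (edgeR adjusted p = 0.232). DESeq2 called Gadd45b (adjusted p = 0.00394), and over all alternatives the adjusted p reached 0.364. Tnfaip2 had a log2 fold change of -0.74 (edgeR adjusted p = 0.243).

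The called gene was Lifr, the receptor for leukemia inhibitory factor, which shares the signalling chain gp130 with the interleukin-6 receptor (chromosome 15 of mm9, 7079572 to 7147489). It had 150.4, 207 and 217 CPM in FXR-WT and 95.02, 75.4 and 94.1 CPM in Y67F-FXR livers, without overlap. The means were 191.6 ± 36.0 CPM and 88.2 ± 11.1 CPM (SD, n = 3 each), and the log2 fold change was -1.12 (standard error 0.174, edgeR adjusted p = 0.0336). With 1 liver left out, Lifr kept its call only without FXR-WT replicate 1, and the adjusted p over these 6 fits ran from 0.0200 to 0.137. A block on the replicate number also ended the call (edgeR adjusted p = 0.149). Its size held, with a log2 fold change between -1.27 and -1.02 in all 12 alternatives. The other 11 genes of the interleukin-6 and STAT3 list, to which Socs3 belongs by function, were not called, and 6 of them were fitted lower.

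Of the 8 listed interferon-gamma genes, 4 were highest in Y67F-FXR replicate 2, as Cxcl10 was, while 3 were highest in FXR-WT livers and 1 in Y67F-FXR replicate 1, beside 23.2% of all tested genes highest in Y67F-FXR replicate 2. One of the 4, Ifng, had 2 reads there and 2 in each of the FXR-WT replicates 1 and 2. Cxcl9, Igtp and Psmb8 are named here after their values were seen. Cxcl9, which binds the same receptor CXCR3, had 8.95, 5.72 and 4.36 CPM in FXR-WT and 3.21, 19.7 and 5.97 CPM in Y67F-FXR livers. Igtp, an interferon-induced GTPase, had 50.4, 57.6 and 48.0 CPM in FXR-WT and 32.7, 116 and 48.3 CPM in Y67F-FXR livers. As with Cxcl10, Y67F-FXR replicate 1 was the lowest and replicate 2 the highest. The immunoproteasome gene Psmb8 (23.1, 57.0 and 30.1 CPM in Y67F-FXR livers) and the T-cell chemokine Ccl5 (0.680, 9.71 and 1.10 CPM) were likewise highest in Y67F-FXR replicate 2. Ccl5 had a log2 fold change of 1.25 (edgeR adjusted p = 0.669), and of -0.84 without that liver (edgeR adjusted p = 0.607). Of the 6 tested chemokine and adhesion genes beyond the members, 0 were called by edgeR or DESeq2 and 0 had an unadjusted p under 0.05 in edgeR. None of the 7 tested interferon-gamma genes was called by edgeR or DESeq2, 0 had an unadjusted p under 0.05, and the adjusted p of Gbp2, the smallest among them, was 0.615 from edgeR's quasi-likelihood test.

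Markers of other liver cells were read beside the members. Hepatocyte RNA prevailed, with Alb at 67623 to 76522 CPM. Markers of Kupffer cells and macrophages, of which all 9 were detected, summed to 188 to 288 CPM in FXR-WT and 158 to 432 CPM in Y67F-FXR livers. All 9 were highest in Y67F-FXR replicate 2, with Marco at 62.2 CPM there and from 5.40 to 16.5 CPM in the other livers. The Kupffer-cell lectin Clec4f had 79.7, 61.8 and 51.5 CPM in FXR-WT and 39.1, 88.5 and 62.8 CPM in Y67F-FXR livers. Lymphocyte markers summed to 4.02 to 6.75 CPM in FXR-WT and 3.11 to 11.9 CPM in Y67F-FXR livers, and 6 of 7 were highest in that same liver. The inhibitor and feedback list and the other target list also summed highest in Y67F-FXR replicate 2, at 343 and 504 CPM. The sum of the subunits was level with FXR-WT replicate 1 at 80.7 CPM, and that of the interleukin-6 and STAT3 list was lowest in Y67F-FXR replicate 2, at 409 CPM. The kinase and adaptor list (400 CPM) and the ligand and receptor list (470 CPM) were there above those of 1 other liver each. The part of macrophages and lymphocytes in the levels of Cxcl10, Vcam1 and the other members in Y67F-FXR replicate 2 was not tested.

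**Figure D4:**
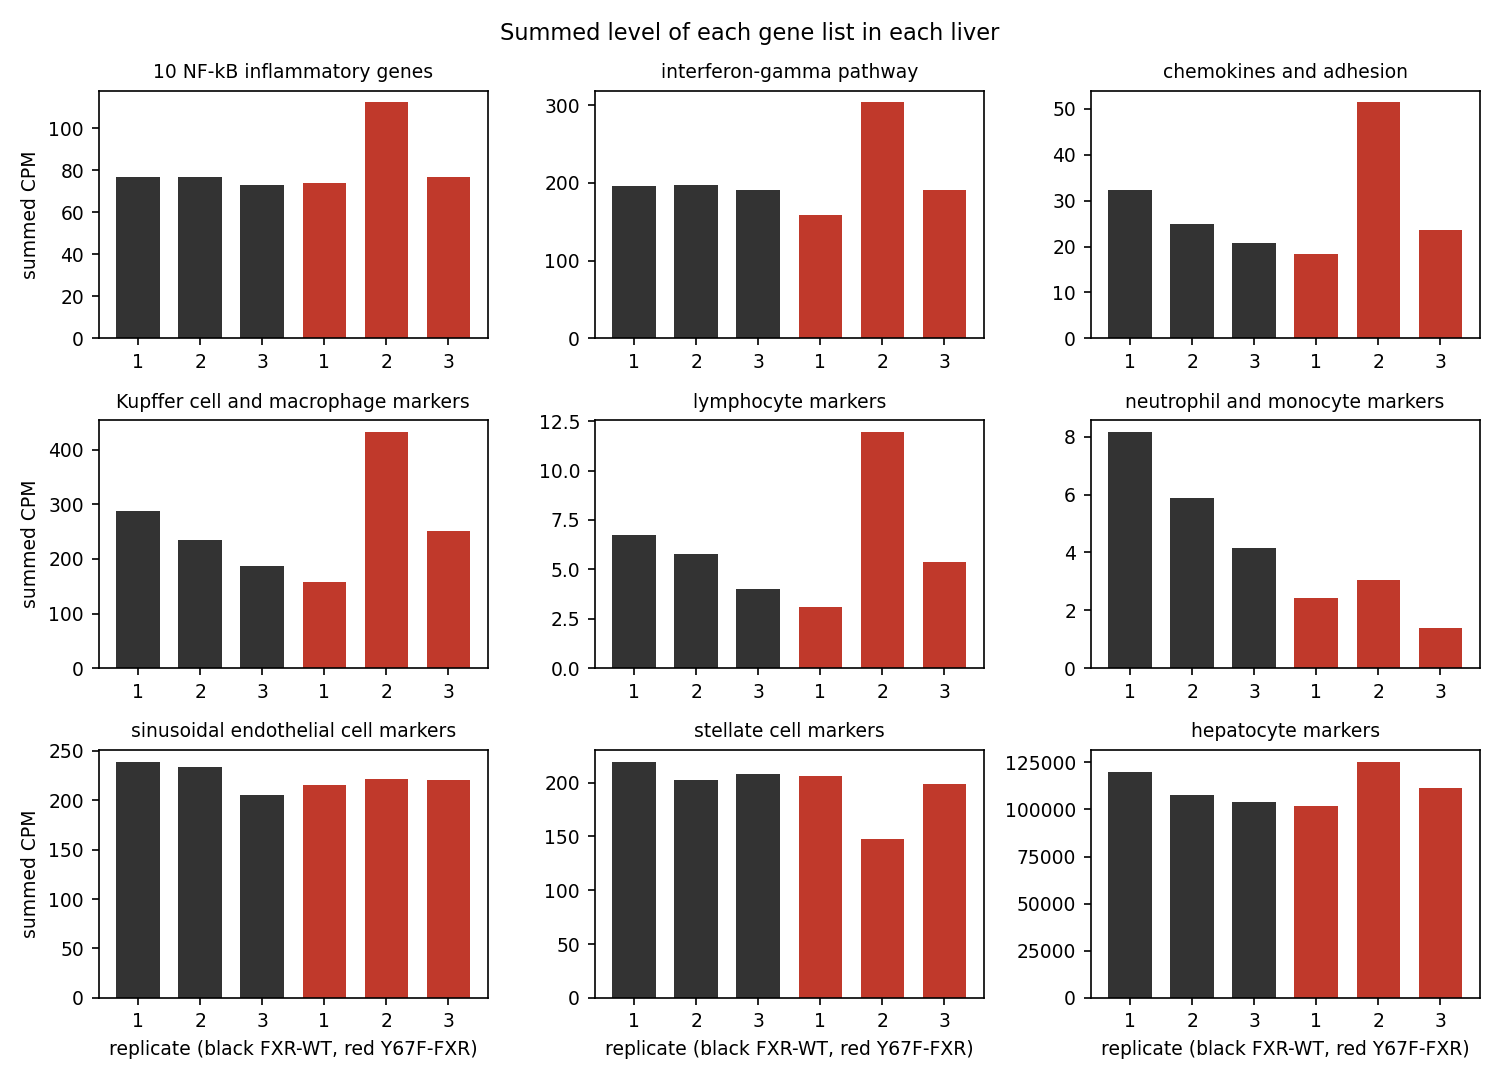
Summed CPM (y axes, from 0) of the 10 genes and of 8 further lists in each liver (x axes, replicates 1 to 3 of FXR-WT in black and of Y67F-FXR in red). Y67F-FXR replicate 2 is the highest bar for the 10 NF-kB genes at 112 CPM, the interferon-gamma, chemokine, macrophage, lymphocyte and hepatocyte lists, and the lowest for stellate cell markers.

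Markers of neutrophils and monocytes were the one marker list whose sums did not overlap between the groups, at very low levels. They summed to 4.15 to 8.16 CPM in FXR-WT and 1.38 to 3.05 CPM in Y67F-FXR livers, and 4 of 9 passed the filter. Mpo had 0 reads in each library, which allows up to 3 if reads are taken as independent. S100a8, a calcium-binding protein of neutrophils, had 1.27, 0.970 and 0.864 CPM in FXR-WT and 0.243, 0.164 and 0.0477 CPM in Y67F-FXR livers. In Y67F-FXR replicates 2 and 3 these levels are 3 reads and 1 read. S100a8 thus had a log2 fold change of -2.73 (edgeR adjusted p = 0.0529), and that of S100a9 was -1.95 (edgeR adjusted p = 0.106). The neutrophil chemokine Cxcl1 had a mean of 5.24 CPM in FXR-WT and 3.16 CPM in Y67F-FXR livers, and the part of these cells in its level was not tested.

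Markers of endothelial and stellate cells, which can express Icam1 and Vcam1, were read in the same way, and their part in the levels of these genes was not tested. Stab2, a receptor of sinusoidal endothelium, had 30.6, 37.1 and 30.8 CPM in FXR-WT and 34.1, 37.6 and 35.2 CPM in Y67F-FXR livers. The endothelial markers together summed to 206 to 239 CPM in FXR-WT and 215 to 221 CPM in Y67F-FXR livers. The stellate markers summed to 202 to 219 CPM in FXR-WT and 148 to 206 CPM in Y67F-FXR livers, with 7 of 8 fitted lower, a median log2 fold change of -0.37, and 3 (37.5%, against 13.4% of all tested genes) at an unadjusted p under 0.05. Among the endothelial markers, 1 of 8 (Lyve1) had an unadjusted p under 0.05 in edgeR (12.5%, against 13.4% of all tested genes). Lyve1 had a log2 fold change of -0.89 (edgeR adjusted p = 0.210). Lrat, which makes retinyl esters in stellate cells, had a log2 fold change of -1.15 (edgeR adjusted p = 0.0540), and Col1a1 of -0.77 (edgeR adjusted p = 0.285). None of the 46 tested markers was called by edgeR, while its unadjusted p was under 0.05 for 6, all lower in Y67F-FXR livers. That is 13.0% of the markers, near the 13.4% of all tested genes. DESeq2 called 3, namely S100a8, S100a9 and Lrat.

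The FXR locus Nr1h4 and the FXR target Nr0b2 (Shp) were read beside the members. The paper describes its flag-FXR as human, and how fully transgene reads align to the mouse gene was not tested. Nr1h4, to which transcripts left from the floxed gene and those of the transgene may both align, averaged 186 ± 30.2 CPM among FXR-WT and 175 ± 9.84 CPM among Y67F-FXR livers (SD, n = 3 each), so its count does not separate the alleles. Nr0b2 had 81.9, 63.7 and 59.5 CPM in FXR-WT and 6.42, 25.9 and 7.59 CPM in Y67F-FXR livers. These groups did not overlap (log2 fold change -2.37, edgeR adjusted p = 0.0862), and Nr0b2 was not called. Y67F-FXR replicate 2, in which most members were highest, was also the Y67F-FXR liver with the highest Nr0b2.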

How the data were processed

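Liver RNA libraries (paired-end, Illumina HiSeq2000) of 3 FXR-WT and 3 Y67F-FXR mice, grouped and numbered by their titles, were analysed. The authors deposited read counts per gene, not normalized, which they made with STAR (2.5.3a in the submitters' processing notes) and featureCounts (1.4.6-p4), with the mm9 gene models of UCSC, singly for the reads of a pair, without strand and without multi-mapping reads. Per the file headers these counts are per library. A deposited table of the authors' own comparison (log2 fold change, CPM, p-value and false discovery rate) was not used. No member shared exon bases with another gene. The labels do not give litters or collection days, and p-values weigh the group difference against the spread between livers within the groups.

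The statistics were run under R 4.3.3, using edgeR 4.0.16 (filterByExpr, TMM, glmQLFit, glmQLFTest) and DESeq2 1.42.0, and figures were drawn in matplotlib 3.10.9. Log2 CPM used a prior count of 2, and standard errors come from the F statistic. The fit gave a common biological coefficient of variation of 0.194. Replicates differed by more than counting noise (median chi-square per gene 2.21 to 7.84). The members and lists were chosen with earlier results of these data known. Named are the members, the genes of each list with an adjusted p under 0.05 or else up to 2 with the smallest p, defining markers, Nr1h4, Rela, Nfkb1 and Nfkb2, with exceptions marked. Tnf, Il6, Ccl20, Ptgs2, Rel, Ifng and Mpo, which were too low to test, and Nr0b2 were named outside this rule after their values were seen. Ly6g was not found in the count files. Promoter sequences are RefSeq's, on another build than the counts. Alternatives were RLE factors, library totals, no filter, DESeq2, loess offsets for gene length (span 0.3), a block on the replicate number, no fold minimum and each liver left out.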

Additional observations from a re-analysis of the deposited data

How the results depend on the processing

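The 9 tested members stayed below the threshold in all 12 alternative analyses, and 0 were called in any of them. In 92 of 108 values the direction also held. Icam1, Nfkbia and Cxcl1 never changed sign. The sign of Cxcl10 turned with the replicate number as a block (-0.0174), that of Socs3 with library totals (-0.0426), and that of Relb with RLE size factors (0.000103) and with DESeq2 (0.00536). When livers were left out in turn, it ran from -0.14 to 0.34 for Vcam1, -0.000148 to 0.57 for Tnfaip3, -0.64 to 0.60 for Cxcl10, -0.15 to 0.21 for Socs3, -0.42 to 0.22 for Il1b and -0.48 to 0.27 for Relb.

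Over all genes, 121 were called, and 420 with DESeq2, 242 with gene length offsets, 8 with the replicate block and 9 to 66 with a liver left out, the fewest without FXR-WT replicate 3. With library totals, 68 of 120 calls were lower, against 53 of 121. In the pathway lists the count of 1 (Lifr) became 2 with DESeq2 (Lifr and Gadd45b), 0 with the block (Lifr, edgeR adjusted p = 0.149), and 0 to 1 with a liver left out. In the marker lists the count of 0 became 1 with RLE factors (Lrat), 1 with library totals (S100a8), 2 with no filter (Lrat and S100a8), and 3 both with DESeq2 and with length offsets (these and S100a9). The causes were not tested. Same-numbered livers did not deviate together (correlations of -0.52, -0.08 and 0.12 across genes), so the numbers were not taken as pairs. Some differently numbered livers did, namely FXR-WT replicate 1 with Y67F-FXR replicate 2 (0.54) and FXR-WT replicate 3 with Y67F-FXR replicate 1 (0.58). FXR-WT replicate 3 and Y67F-FXR replicate 2 deviated in opposite directions (-0.59), and the remaining combinations lay from -0.13 to 0.06. What these livers share was not tested. Depth limits Ccl2 (4 to 12 reads), Il1b and Tnfaip3 most, and fits with a liver left out assume that the groups vary alike.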
